A study of Mus with 6 samples.

Results

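The respiratory chain genes were taken as the genes annotated to the KEGG pathway of oxidative phosphorylation (mmu00190) in the deposited annotation, leaving out those whose symbol starts with Atp6v, together with the 13 protein genes of the mitochondrial genome. This gave 108 of 20893 genes, 95 of them nuclear. By name, 84 of the nuclear genes encode subunits of complexes I to V (38 of complex I, 4 of complex II, 9 of complex III, 18 of complex IV and 15 of complex V), 4 are assembly factors of complex IV, 1 is cytochrome c and 6 are further enzymes. The pathway label held for the first 3 kinds, while Tcirg1 and Atp6ap1, both of the vacuolar proton pump, Atp4a of the gastric proton pump, the pyrophosphatase genes Ppa1 and Ppa2, and the phosphatase gene Lhpp are not parts of the respiratory chain.

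The RNA came from mouse cardiac microvascular endothelial cells, which bead sorting had enriched for CD31 and depleted of CD45. In both genotypes the left coronary artery had been ligated beforehand, a model of myocardial infarction. 3 libraries came from Ccl28-KO mice (KO) and 3 from wild-type mice (WT), and in both groups the titles carry the replicate numbers 2, 3 and 4. The titles of all 3 KO libraries read Ccl28-KO, whereas the genotype field of KO replicates 3 and 4 reads Ccl29-KO and Ccl30-KO, and the titles were followed. How the Ccl28 allele was made, the strain, the age, the sex and the time after ligation were not given in the sources used here, nor whether libraries came from separate or pooled animals. The p-values below therefore reflect the spread among these 6 libraries, part of which may be technical.

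Complexes I to IV pass electrons from NADH and succinate to oxygen across the inner mitochondrial membrane and pump protons (complex II does not pump), and complex V, the ATP synthase, uses the proton gradient to make ATP. Complex II is encoded by nuclear genes alone, and the other complexes combine subunits from both genomes, so that their supply of mRNA depends on transcription in the nucleus and in the mitochondrion. Endothelial cells draw much of their ATP from glycolysis, and cardiomyocytes, their neighbours in the heart, are far richer in mitochondria.

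Ccl28, the gene deleted, had 0 reads in each of the KO libraries and 16, 11 and 24 reads in WT replicates 2, 3 and 4. Reads assigned to genes numbered 36004457 to 37780513 per KO library and 39104282 to 40500067 per WT library. The endothelial markers Pecam1 and Cdh5 were high in both groups, at 610.8 ± 45.1 and 569.4 ± 52.4 FPKM in KO and 704.7 ± 35.9 and 766.3 ± 14.1 FPKM in WT (SD, n = 3 each), and Ptprc, which encodes CD45, was at 1.16 ± 0.213 FPKM in KO and 1.23 ± 0.438 FPKM in WT. FPKM counts fragments per kilobase of transcript, scaled to the reads of the library. Tests were made with limma on log2(FPKM + 1) over the 10806 genes that reached 1 FPKM in 3 or more libraries. Log2 fold changes (KO over WT) are on that scale, where the change of a weakly expressed gene comes out too small, and ratios are those of mean FPKM. A gene is said to have risen or fallen where the adjusted p was under 0.05. These are bulk preparations, in which more cells of a type and more RNA per cell cannot be told apart.

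Most nuclear subunits of each of the 5 complexes were higher in KO. Of 83 that were tested, 74 rose and none fell in limma, with a median log2 fold change of 0.49, and 81 lay above 0. Over all tested genes 18.3% rose and 25.8% fell, and each count by complex below stands beside these shares. No subunit changed by 1 or more on the log2 scale: the ratio of mean FPKM ran from 0.934 for Ndufs1 to 1.7 for Ndufb4. In 75 of the 83 the lowest KO library lay above the highest WT library, as it did in 22.8% of all tested genes. None of the 83 had all KO libraries below the WT ones, against 31.9% of all tested genes. With limma-voom on reads recovered from the FPKM, 73 rose and none fell, against 17.3% and 27.7% of all tested genes. In the authors' deposited table, 74 of 84 were higher with q under 0.05 and none was lower, against 13.6% higher and 15.7% lower over its 17686 genes. The filter on low values removed 2 of the 108 members, the Ndufb4 copy Ndufb4c and Atp4a, both under 0.4 FPKM in every library.

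Summed per complex, nuclear subunits reached 3797 ± 253 FPKM in KO and 2661 ± 96.8 FPKM in WT for complex I, and 369 ± 14.7 FPKM in KO and 304 ± 10.7 FPKM in WT for complex II (SD, n = 3 each). The sums were 1436 ± 74.9 FPKM in KO and 1041 ± 44.2 FPKM in WT for complex III, 3736 ± 157 FPKM in KO and 2609 ± 94.6 FPKM in WT for complex IV, and 3332 ± 117 FPKM in KO and 2435 ± 171 FPKM in WT for complex V. The ratio of these means was 1.21 for complex II and 1.37 to 1.43 for the others, and in no complex did the groups overlap. The complexes were not tested against each other, and fold changes also went with transcript length, as described below. KO values were mostly highest in replicate 4. Of the 83 subunits, 62 had their highest KO value in replicate 4 and 54 their lowest KO value in replicate 3. Among the WT libraries, 53 had their highest value in replicate 2 and 45 their lowest in replicate 4. Summed over complexes I to V, nuclear subunits took 1.13%, 1.08% and 1.17% of the reads in KO replicates 2, 3 and 4, and 0.885%, 0.832% and 0.815% in WT replicates 2, 3 and 4.

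**Figure D1:**
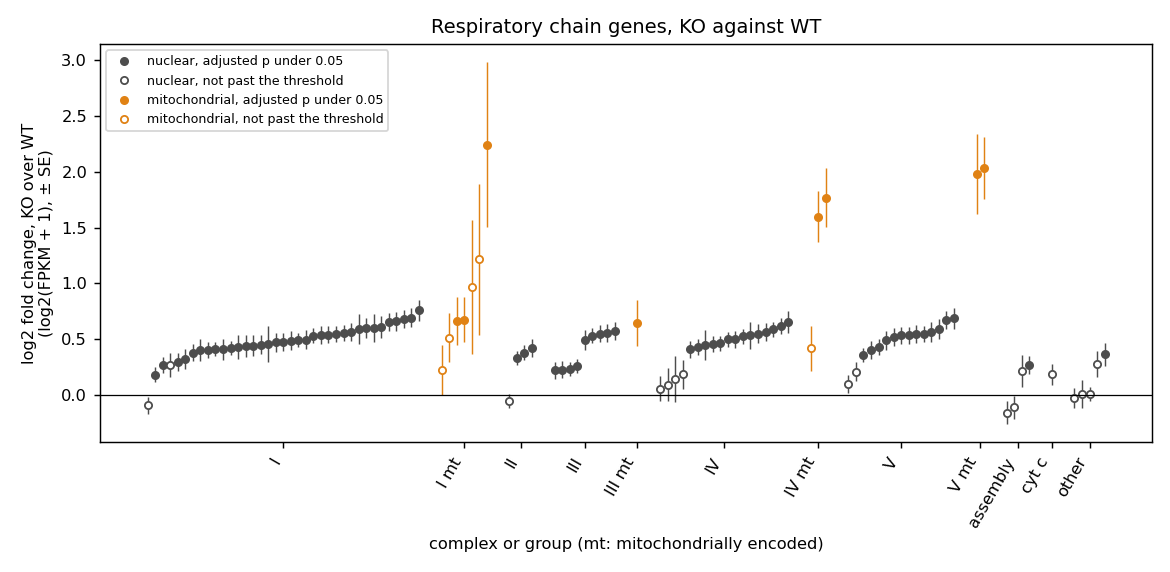
Each point is the log2 fold change, KO over WT, of 1 tested gene with its SE, sorted within complexes I to V, complex IV assembly factors, cytochrome c and the further enzymes; grey points are nuclear genes, orange points mitochondrially encoded ones, and filled points passed an adjusted p of 0.05. Nuclear subunits lie between -0.09 and 0.76, and mitochondrially encoded genes between 0.23 and 2.25.

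In complex I, 35 of 37 tested nuclear subunits rose, and the accessory subunits, which surround the catalytic core, rose without exception in limma (30 of 30, median 0.49). Ndufb4, Ndufb11 and Ndufc1, accessory subunits of the membrane arm, had the smallest p. Ndufb4 had 104, 102 and 119 FPKM in KO replicates 2, 3 and 4, and 71.5, 59.9 and 60 FPKM in WT replicates 2, 3 and 4. Ndufb4 rose by 0.76 on the log2 scale (SE 0.092, limma adjusted p = 0.000523). Both groups were apart, with the KO libraries well above the WT ones. Ndufb4 lies on chromosome 16 from 37647602 to 37654368 (GRCm38), Ndufb11 on chromosome X from 20615326 to 20617619 and Ndufc1 on chromosome 3 from 51405479 to 51408955. Ndufb11 averaged 136 ± 14.4 FPKM in KO and 83.5 ± 2.55 FPKM in WT and Ndufc1 averaged 58.3 ± 5.23 FPKM in KO and 35.9 ± 1.65 FPKM in WT. The most abundant subunits were Ndufa3, Ndufa8 and Ndufb7, all accessory. Ndufa3 had 281, 276 and 319.6 FPKM in KO replicates 2, 3 and 4, and 209, 189 and 179.5 FPKM in WT replicates 2, 3 and 4. In limma the log2 fold change of Ndufa3 was 0.60 (SE 0.086, adjusted p = 0.000825). Ndufa8 and Ndufb7 rose 1.37-fold and 1.46-fold. The copy Ndufb4b passed as well (limma adjusted p = 0.0409, and 0.165 with limma-voom), with overlapping groups at 2.71 ± 0.167 FPKM in KO and 1.76 ± 0.71 FPKM in WT. That call was lost without any 1 of the libraries except WT replicate 2 (adjusted p from 0.0728 to 0.131). Its name marks it as a copy of Ndufb4, and how reads shared by such copies were counted is not given in the sources used here.

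Of the 7 nuclear core subunits of complex I, named here for their role and, like Ndufb4b, chosen after their values were seen, 5 rose. Their median implied transcript length was 1608 nt, against 691 nt for the accessory subunits. Fold changes went with length across all tested genes, and with that trend removed, 2 of 7 core and 7 of 30 accessory subunits rose, and the difference between core and accessory subunits was not tested. Ndufv2, an iron-sulfur protein of the arm that takes electrons from NADH, rose 1.55-fold, and Ndufs8 of the arm that leads to ubiquinone rose 1.41-fold. Ndufv1, which binds the flavin and oxidises NADH, was at 82 ± 3.54 FPKM in KO and 72.1 ± 1.59 FPKM in WT, a small rise (log2 fold change 0.18, limma adjusted p = 0.0454, and adjusted p = 0.0537 with limma-voom on recovered reads). It did not pass when any 1 library was left out (adjusted p from 0.0531 to 0.164). Ndufs3 rose 1.34-fold, and Ndufs7 missed the threshold at log2 fold change 0.27 (limma adjusted p = 0.0596). Ndufs7 passed without WT replicate 3 (adjusted p = 0.03), with limma-voom (0.0443), with a filter at 5 FPKM (0.0491) and with median-ratio and nuclear-read scaling (0.0458 and 0.0402). Ndufs1 had 15.5, 15.9 and 14.8 FPKM in KO replicates 2, 3 and 4, and 16.9, 15.2 and 17.4 FPKM in WT replicates 2, 3 and 4. Ndufs1, the large iron-sulfur subunit, lies on chromosome 1 from 63143592 to 63176822, and its groups overlapped (log2 fold change -0.09, SE 0.078, limma adjusted p = 0.37).

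Complex II oxidises succinate and also belongs to the citrate cycle. Sdhb had 111, 108 and 116 FPKM in KO replicates 2, 3 and 4, and 92.9, 79.3 and 78.2 FPKM in WT replicates 2, 3 and 4. The log2 fold change of Sdhb was 0.42 (SE 0.081, limma adjusted p = 0.00308). The iron-sulfur subunit gene Sdhb was thus higher in each KO library than in any WT library. The membrane anchor genes Sdhc and Sdhd rose 1.26-fold and 1.31-fold, also without overlap. Sdha had 80.8, 73.1 and 78.5 FPKM in KO replicates 2, 3 and 4, and 81.2, 79.8 and 80.1 FPKM in WT replicates 2, 3 and 4. Sdha, the flavoprotein subunit, lies on chromosome 13 from 74322255 to 74350240. Its groups overlapped, with a log2 fold change of -0.05 (SE 0.066, limma adjusted p = 0.54), and the sign of that change turned to 0.002 when FPKM was scaled to the reads of nuclear genes. With quantile normalization Sdha was lower in KO (log2 fold change -0.17, limma adjusted p = 0.0406).

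**Figure D2:**
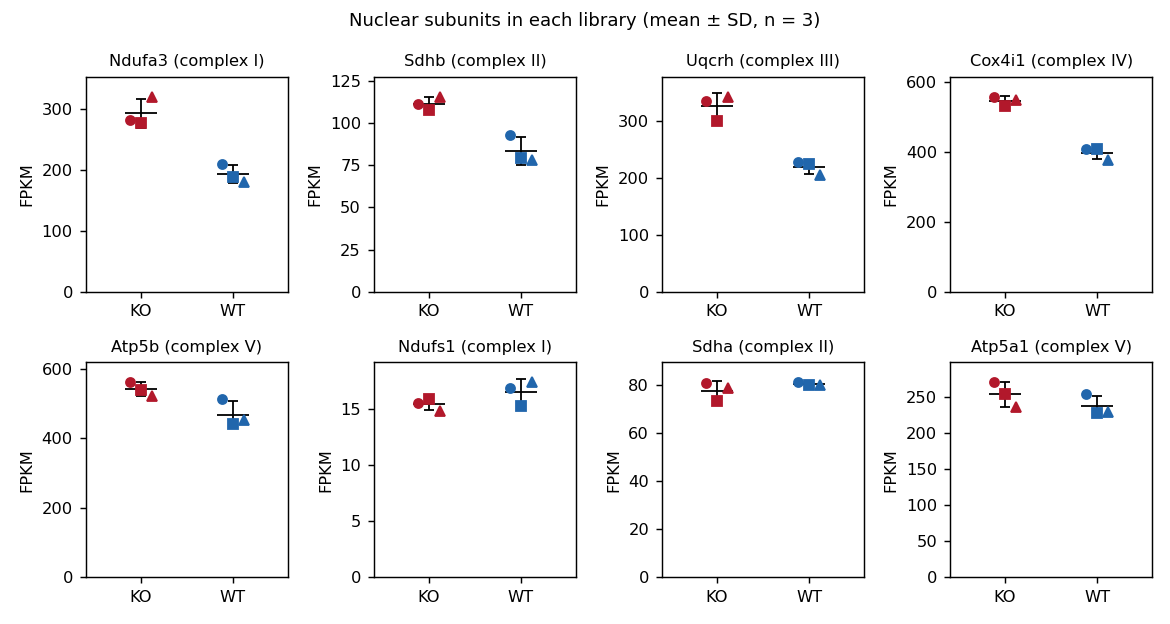
FPKM of 8 nuclear subunits in each KO library (red, left) and WT library (blue, right), with circles, squares and triangles for replicates 2, 3 and 4 and black bars for the mean ± SD of 3 libraries. The top row and Atp5b are the subunits with the highest mean FPKM of their complex and have higher KO means, and Ndufs1, Sdha and Atp5a1 have overlapping groups.

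All 9 nuclear subunits of complex III, which passes electrons from ubiquinol to cytochrome c, rose. The 5 small accessory subunits had a median log2 fold change of 0.55. The core proteins Uqcrc1 and Uqcrc2 rose 1.18-fold and 1.17-fold, and the redox subunits Cyc1, cytochrome c1, and Uqcrfs1, the Rieske iron-sulfur protein, 1.2-fold and 1.17-fold. Median implied lengths were 546 nt for the accessory subunits, 1769 nt for the core proteins and 1434 nt for the redox subunits, and with the length trend removed the medians were 0.051, 0.027 and -0.035. The differences between these kinds of subunit were not tested. The call of Uqcrc1 was lost without KO replicate 2 or WT replicate 4 (limma adjusted p = 0.0636 and 0.0794), and that of Uqcrc2 without KO replicate 2, KO replicate 4, WT replicate 3 or WT replicate 4 (adjusted p from 0.0772 to 0.155). Uqcrfs1 passed without KO replicate 3 but not without any other library (adjusted p from 0.0727 to 0.13). Uqcrh had 336, 302 and 344 FPKM in KO replicates 2, 3 and 4, and 228, 225 and 205 FPKM in WT replicates 2, 3 and 4. Uqcrh rose by 0.57 on the log2 scale (SE 0.079, limma adjusted p = 0.000721). Uqcrh encodes the hinge protein, which sits next to cytochrome c1. Uqcr11 averaged 219 ± 11.9 FPKM in KO and 151 ± 3.81 FPKM in WT, Uqcr10 averaged 212 ± 13.1 FPKM in KO and 144 ± 9.46 FPKM in WT, and Uqcrb, a small subunit near the quinone site, averaged 229 ± 20.6 FPKM in KO and 162 ± 15.7 FPKM in WT. None of the 9 overlapped between the groups, with KO higher, as in 22.8% of all tested genes, and 5 of the 9 kept the call with quantile normalization.

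Of 18 nuclear genes of complex IV, cytochrome c oxidase, 14 rose, among them the forms used in most tissues. Ndufa4 and its paralogue Ndufa4l2 are counted here, although the first was named for complex I. Cox4i1 had 558, 532 and 547 FPKM in KO replicates 2, 3 and 4, and 407, 407 and 377 FPKM in WT replicates 2, 3 and 4. In limma the log2 fold change of Cox4i1 was 0.46 (SE 0.072, adjusted p = 0.00114). Cox4i1, the largest nuclear subunit, had the highest level of the complex together with Cox6a1 and Cox6b1, which rose 1.47-fold and 1.48-fold. The smallest p belonged to Cox7c, Cox6c and Cox5b. Cox7c had 239, 243 and 254 FPKM in KO replicates 2, 3 and 4, and 168, 150.1 and 159 FPKM in WT replicates 2, 3 and 4. The log2 fold change of Cox7c was 0.62 (SE 0.071, limma adjusted p = 0.000496). Cox6c averaged 342 ± 13.6 FPKM in KO and 227 ± 8.07 FPKM in WT and Cox5b averaged 337 ± 17.7 FPKM in KO and 233 ± 2 FPKM in WT. Cox7a2l, a factor that joins complexes III and IV into supercomplexes and that was chosen after its values were seen, rose 1.58-fold.

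Of 6 forms typical of muscle, lung, testis or low oxygen, Cox7a1 and Cox6b2 rose and the other four did not pass the test. Cox6a2 and Cox8b, the muscle forms, averaged 14.2 ± 1.54 FPKM in KO and 12.4 ± 2.28 FPKM in WT, and 14.8 ± 3.63 FPKM in KO and 13.4 ± 4.14 FPKM in WT, and in both the groups overlapped (log2 fold changes 0.18 and 0.14, limma adjusted p = 0.263 and 0.603). Cox7a1, the third muscle form, rose 1.5-fold, and its counterpart Cox7a2 rose 1.35-fold. Cox4i2, a form described in lung and in cells that respond to low oxygen, averaged 33.8 ± 8.24 FPKM in KO and 31.2 ± 2.82 FPKM in WT, and its groups overlapped (limma adjusted p = 0.646). Ndufa4l2, known to be induced by hypoxia, averaged 34.3 ± 4.97 FPKM in KO and 32.8 ± 3.82 FPKM in WT (limma adjusted p = 0.705). As a share of the FPKM of a pair, which library scaling does not touch, Ndufa4l2 made up 11.5%, 9.81% and 10.2% of Ndufa4l2 plus Ndufa4 in KO replicates 2, 3 and 4, and 12.1%, 13.5% and 15.9% in WT replicates 2, 3 and 4. This was the only one of 6 pairs whose groups did not overlap, and it was not tested. The share leaves the change with transcript length in place, and Ndufa4l2 is longer than Ndufa4, at 1152 nt against 497 nt. With the length trend removed the log2 fold changes were -0.28 for Ndufa4l2 and 0.001 for Ndufa4 (limma adjusted p = 0.137 and 0.993). Cox4i2 held 4.69% to 7.09% of its pair in KO and 6.48% to 7.68% in WT, and Cox6b2, a testis form, 0.325% to 0.481% in KO and 0.275% to 0.417% in WT. The rise of Cox6b2 by limma (1.67-fold, adjusted p = 0.0207) was lost with limma-voom (adjusted p = 0.138) and, in limma, without KO replicate 4, WT replicate 2 or WT replicate 4 (adjusted p = 0.0740, 0.0647 and 0.0551).

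**Figure D3:**
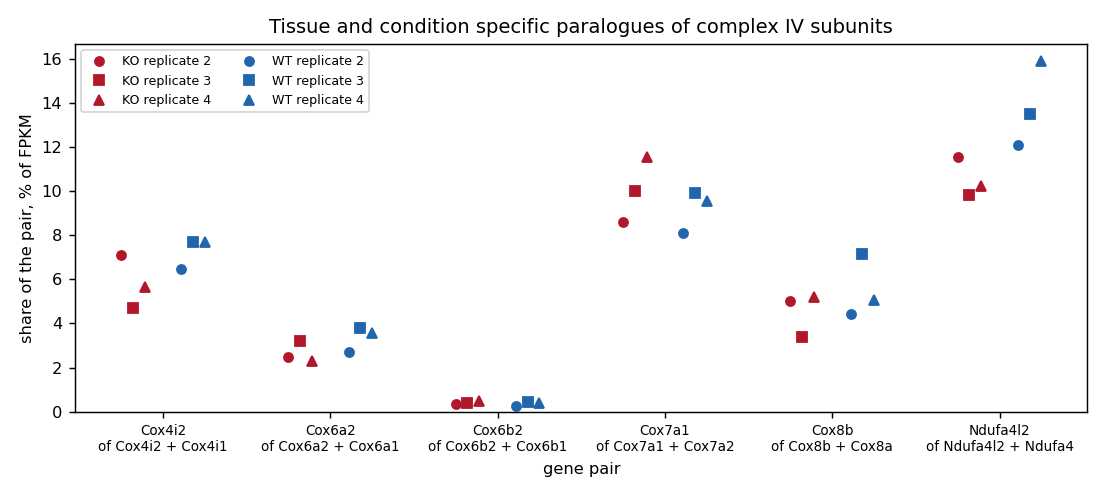
Share of the summed FPKM of a gene pair held by its less abundant member, in percent, for each KO library (red, left) and WT library (blue, right), with circles, squares and triangles for replicates 2, 3 and 4. Groups overlap in 5 of 6 pairs, and the Ndufa4l2 share is below 11.6% in KO and above 12.1% in WT.

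In complex V, 13 of 15 nuclear subunits rose. In the F1 head, which holds the catalytic sites, and its central stalk, Atp5e, Atp5d and Atp5c1 rose 1.59-fold, 1.35-fold and 1.41-fold. Atp5e had 349, 340.3 and 381 FPKM in KO replicates 2, 3 and 4, and 244, 217 and 209 FPKM in WT replicates 2, 3 and 4. Both groups were apart, and Atp5e, the epsilon subunit, lies on chromosome 2 from 174461075 to 174464101. Atp5b had 563, 539 and 524 FPKM in KO replicates 2, 3 and 4, and 513, 441 and 452 FPKM in WT replicates 2, 3 and 4. Atp5b encodes the catalytic beta subunit and was the most abundant nuclear member. Its groups did not overlap but missed the threshold (log2 fold change 0.21, SE 0.082, limma adjusted p = 0.0602), and Atp5a1, the alpha subunit, averaged 253 ± 17.2 FPKM in KO and 237 ± 14.9 FPKM in WT with overlapping groups (limma adjusted p = 0.346). Atp5b passed in limma with median-ratio and nuclear-read scaling (adjusted p = 0.0177 and 0.0155), with limma-voom (0.0468) and without WT replicate 2 (0.0184). With quantile normalization its log2 fold change was -0.16, and with the length trend removed it was 0.03 (limma adjusted p = 0.797). The c ring genes Atp5g1, Atp5g2 and Atp5g3, which encode the same mature protein, rose 1.52-fold, 1.45-fold and 1.29-fold. In the peripheral stalk all 4 genes rose, including Atp5o, which averaged 247 ± 1.24 FPKM in KO and 170.4 ± 12.5 FPKM in WT. In the membrane part Atp5l averaged 144 ± 7.02 FPKM in KO and 98.6 ± 6.97 FPKM in WT and Atp5j2 averaged 439.7 ± 23.7 FPKM in KO and 298 ± 31.3 FPKM in WT, and both rose.

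Outside the 5 complexes, 1 of 4 assembly factors and 1 of 5 tested further enzymes rose and the cytochrome c gene did not, against 18.3% of all tested genes. Median implied lengths were 2712, 3068 and 3154 nt in that order, against 792 nt for the nuclear subunits. Cycs, the mobile carrier between complexes III and IV, averaged 17 ± 1.12 FPKM in KO and 14.8 ± 1.69 FPKM in WT (limma adjusted p = 0.133). It passed with median-ratio and nuclear-read scaling (adjusted p = 0.0482 and 0.0467) and without WT replicate 2 (0.0436). Of the assembly factors, the copper chaperone gene Cox17 rose 1.21-fold (limma adjusted p = 0.0225), and Cox10, Cox11 and Cox15, which make or insert heme a and copper, had overlapping groups. Of the further enzymes, the mitochondrial pyrophosphatase gene Ppa2 rose 1.34-fold (limma adjusted p = 0.0167), and Ppa1, Tcirg1, Atp6ap1 and Lhpp did not pass, with log2 fold changes of 0.28, -0.02, 0.01 and 0.01. Ppa1 passed with median-ratio and nuclear-read scaling (limma adjusted p = 0.0337 and 0.0335) and without WT replicate 2 (log2 fold change 0.37, adjusted p = 0.0306). The call of Cox17 was lost without KO replicate 4, WT replicate 2 or WT replicate 3 (limma adjusted p = 0.0784, 0.0534 and 0.0528), and that of Ppa2 without KO replicate 4 or WT replicate 3 (adjusted p = 0.0594 and 0.0513).

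The mitochondrially encoded mRNAs held 83.0% to 90.2% of the summed FPKM of all members, and all 13 had a positive log2 fold change, with a median of 0.97. Of these 8 rose and none fell in limma, against 18.3% and 25.8% of all tested genes. In 6 the groups did not overlap, with KO higher, as in 22.8% of all tested genes. By the authors' deposited table, q was under 0.05 for 5 of the 13, all higher in KO, against 13.6% higher and 15.7% lower over all its genes. The mitochondrial genome is transcribed from both strands as long precursors that are cut, mostly at tRNAs, into mRNAs with short poly(A) tails. Reads of these genes took 10.5%, 11.98% and 12.7% of KO replicates 2, 3 and 4, and 6.03%, 10.8% and 7.86% of WT replicates 2, 3 and 4. WT replicate 3 therefore lay above KO replicate 2, and the groups overlapped. The count of genes that rose was 10 without WT replicate 3, 4 without KO replicate 4, WT replicate 2 or WT replicate 4, and 5 without KO replicate 3.

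COX1 and CYTB held most of the mitochondrial reads, 58.2% to 61.3% in KO and 60.6% to 62.2% in WT. COX1 had 26365, 29226 and 29537 FPKM in KO replicates 2, 3 and 4, and 16209, 27953 and 20975 FPKM in WT replicates 2, 3 and 4. COX1, the catalytic subunit of complex IV, lies from base 5328 to 6872 of the mitochondrial genome. KO values exceeded WT replicates 2 and 4 but KO replicate 2 lay below WT replicate 3, and the difference missed the threshold (log2 fold change 0.42, SE 0.20, limma adjusted p = 0.117). Without WT replicate 3 it passed (log2 fold change 0.62, limma adjusted p = 0.0334), as it did with limma-voom (adjusted p = 0.0367). With the length trend removed the log2 fold change of COX1 was 0.17 (limma adjusted p = 0.593). CYTB had 20664, 22896 and 24754 FPKM in KO replicates 2, 3 and 4, and 10926, 19449 and 14385 FPKM in WT replicates 2, 3 and 4. CYTB, the cytochrome b of complex III from base 14145 to 15288, did not overlap between groups (log2 fold change 0.65, SE 0.21, limma adjusted p = 0.0288). Its call was lost without any 1 of the libraries except WT replicate 3, with limma adjusted p from 0.052 to 0.0862, and with replicate numbers blocked (limma adjusted p = 0.0613).

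Of the membrane core subunits of complex I, ND1 and ND2 rose 1.57-fold and 1.54-fold (limma adjusted p = 0.0224 and 0.0297). ND1 had 13671, 16562 and 18501 FPKM in KO replicates 2, 3 and 4, and 7981, 13472 and 9594 FPKM in WT replicates 2, 3 and 4. ND5 had 3934, 4307 and 4338 FPKM in KO replicates 2, 3 and 4, and 2388, 4995 and 3856 FPKM in WT replicates 2, 3 and 4. ND4 and ND5 had overlapping groups, with log2 fold changes of 0.51 and 0.23. ND1, ND2, ND4 and ND5 are proton-pumping or quinone-binding subunits, and in each of them WT replicate 3 was the highest WT library. Without it ND4 had a log2 fold change of 0.78 (limma adjusted p = 0.00752), and ND4 also passed with limma-voom (adjusted p = 0.0318). With the length trend removed the log2 fold change of ND4 was 0.22 (limma adjusted p = 0.535). The log2 fold change of ND5 turned to -0.07 without WT replicate 2. The calls of ND1 and ND2 were lost without KO replicate 4, WT replicate 2 or WT replicate 4 (limma adjusted p from 0.0652 to 0.0969), and that of ND2 also without KO replicate 3 (adjusted p = 0.0606).

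In neighbouring genes from COX2 to ND4L (bases 7013 to 10173), a stretch that was chosen after its values were seen, the ratio of mean FPKM was 2.74 to 5.61. Outside it ND6 had a ratio of 2.76, and the other six genes 1.12 to 1.57. Of its 6 genes 5 rose, and the median of the log2 fold changes was 1.88, and of the 7 genes outside it 3 rose, the median being 0.65. COX2 had 1603, 1926 and 2614 FPKM in KO replicates 2, 3 and 4, and 529, 952 and 575 FPKM in WT replicates 2, 3 and 4. COX2 rose by 1.599 on the log2 scale (SE 0.23, limma adjusted p = 0.000802). The KO libraries were all above the WT ones, and the ratio of means was 2.99. ATP6 had 571, 892 and 1147 FPKM in KO replicates 2, 3 and 4, and 166, 308 and 165 FPKM in WT replicates 2, 3 and 4. In limma the log2 fold change of ATP6 was 2.03 (SE 0.28, adjusted p = 0.000694). ATP6, the subunit of complex V that forms the proton path with the c ring, thus rose 4.09-fold, and ATP8, a small subunit next to it, averaged 163 ± 32.4 FPKM in KO and 45.7 ± 30 FPKM in WT, also without overlap. COX3 had 1336, 2461 and 3369 FPKM in KO replicates 2, 3 and 4, and 655, 703 and 607 FPKM in WT replicates 2, 3 and 4. The log2 fold change of COX3 was 1.77 (SE 0.26, limma adjusted p = 0.00095). COX3, a core subunit of complex IV, differed more between the KO libraries than between the WT ones. ND3 had 63, 586 and 164 FPKM in KO replicates 2, 3 and 4, and 25, 98.5 and 21.6 FPKM in WT replicates 2, 3 and 4. ND3, a small core subunit of complex I, was by far highest in KO replicate 3, and its groups overlapped. Its call (limma adjusted p = 0.0327) was lost without that library (log2 fold change 1.41, adjusted p = 0.0760) and without KO replicate 4, WT replicate 2 or WT replicate 4 (adjusted p from 0.0736 to 0.104). ND4L had 93, 765 and 343 FPKM in KO replicates 2, 3 and 4, and 119.5, 256 and 62.6 FPKM in WT replicates 2, 3 and 4. ND4L had overlapping groups, and the ratio of means was 2.74 (limma adjusted p = 0.171). Without KO replicate 2 its log2 fold change was 2.03 (limma adjusted p = 0.0134). ND6, the gene on the other strand, was high in KO replicate 4 alone. ND6 had 84.3, 63.6 and 445 FPKM in KO replicates 2, 3 and 4, and 43.1, 96.4 and 75.3 FPKM in WT replicates 2, 3 and 4. Its groups overlapped (limma adjusted p = 0.215).

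Set against COX1 within each library, which takes out the level of mitochondrial RNA as a whole, COX2, ATP8, ATP6 and COX3 stood apart without overlap, and ND3 and ND4L did not. COX2 was at 6.08%, 6.59% and 8.85% of the COX1 level per length in KO replicates 2, 3 and 4, and 3.27%, 3.40% and 2.74% in WT replicates 2, 3 and 4. ATP6 was at 2.16%, 3.05% and 3.88% in KO and 1.02%, 1.1% and 0.785% in WT. ND3 was at 0.239%, 2.01% and 0.556% in KO and 0.154%, 0.353% and 0.103% in WT, and ND4L at 0.353%, 2.62% and 1.16% in KO and 0.738%, 0.915% and 0.298% in WT, so that in both the groups overlapped. CYTB, ND1 and ND2 also had higher ratios in each KO library, by 1.17, 1.2 and 1.19 times on average, whereas those of ND4, ND5 and ND6 overlapped. These ratios are descriptions, with no test, and they leave the change with transcript length in place. CYTB, ND1 and ND2 are shorter than COX1, at 1144, 957 and 1038 nt against 1545 nt. With the length trend removed none of them passed (limma adjusted p = 0.331, 0.344 and 0.375). The genes from COX2 to ND4L together took 2.49%, 3.6% and 4.26% of the mitochondrial reads in KO and 1.72%, 1.42% and 1.29% in WT.

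Values of that stretch are uncertain. Mean WT levels of its genes were 45.7 to 685 FPKM, against 3746 to 21712 FPKM for ND1, ND2, COX1, ND4, ND5 and CYTB, although ATP8 and ATP6 overlap by 43 bases, ND4L and ND4 overlap by 7 bases, and each of these pairs is known to be carried on a shared mRNA. The RefSeq annotation of GRCm38.p6 places the pseudogenes Gm10925 (681 bases, chromosome 1 from 24613971 to 24614651, with mt-Atp6 among its synonyms) and Gm10222 (297 bases, chromosome 1 from 24612404 to 24612700) as far apart as ATP6 and ND4L: 1271 bases lie from the end of Gm10222 to the start of Gm10925, and 1270 from the end of ATP6 to the start of ND4L, which are also 681 and 297 bases long. Mouse chromosome 1 is known to carry a long copy of mitochondrial DNA, and reads that match both places cannot be told apart by sequence. How the authors' counting treated reads with several matches is not given in the sources used here, and the part of this copy in the difference between KO and WT was not tested.

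**Figure D4:**
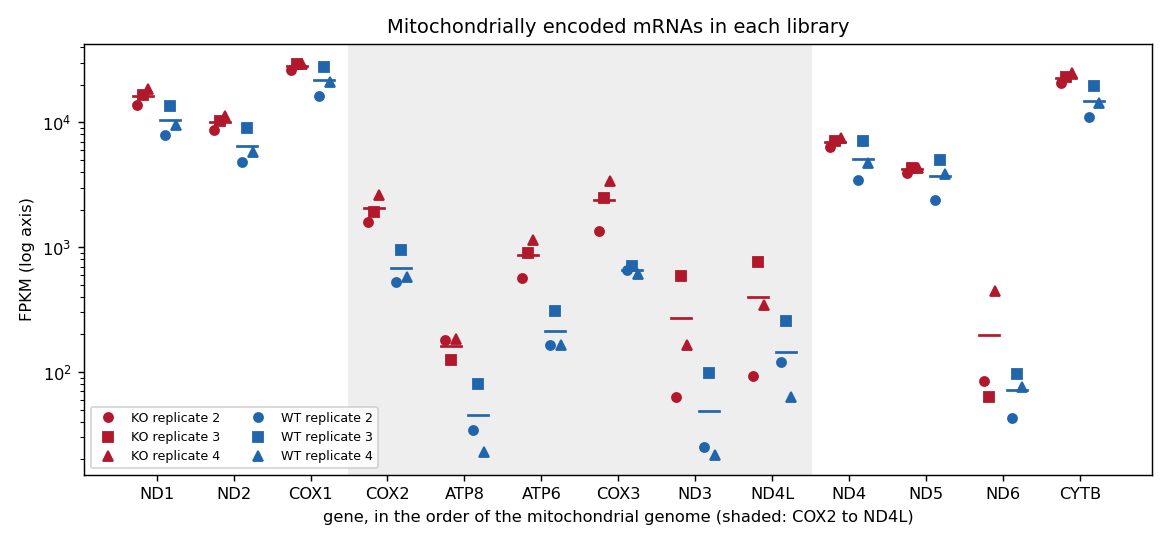
FPKM (log axis) of the 13 mitochondrially encoded mRNAs in genome order, for each KO library (red, left) and WT library (blue, right), with circles, squares and triangles for replicates 2, 3 and 4 and lines for group means; the shaded stretch runs from COX2 to ND4L. The KO libraries lie above the WT ones in COX2, ATP8, ATP6 and COX3 and, by less, in ND1 and CYTB.

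Nuclear and mitochondrial members were compared within each library. The mean log2(FPKM + 1) of the 83 nuclear subunits minus that of the 13 mitochondrial genes was -3.85, -4.54 and -4.56 in KO replicates 2, 3 and 4, and -3.21, -4.23 and -3.42 in WT replicates 2, 3 and 4. The groups overlapped, since WT replicate 3 lay below KO replicate 2. The group means differed by -0.70 (KO minus WT), by -1.01 without WT replicate 3 and by -0.50 without WT replicate 2. For the 7 mitochondrial genes outside COX2 to ND4L the mean level was 12.63 ± 0.30 in KO and 12.04 ± 0.46 in WT (SD, n = 3 each), and for the nuclear subunits it was 6.70 ± 0.071 in KO and 6.25 ± 0.047 in WT. Both are descriptions over members and carry no test.

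Change also went with transcript length, and respiratory chain genes are short. The length is the one implied by FPKM and recovered reads, which can exceed that of the main transcript. Across the 10806 tested genes, which are not independent replicates, longer transcripts had lower fold changes (Spearman's rho -0.72). Fitted per library, the level relative to the mean of all libraries changed per doubling of length by -0.15 to -0.091 in KO and by 0.10 to 0.13 in WT, on the log2 scale. The 83 nuclear subunits had a median length of 792 nt, against 3429 nt for all tested genes, and 70 of them were among the 2162 shortest (up to 1791 nt). Of those 70, 65 rose and none fell, against 59.8% and 1.57% of the 2162. Among genes under 600 nt, 26 subunits had a median log2 fold change of 0.55, against 0.54 in 177 other genes. From 600 to 1000 nt the medians were 0.49 for 21 subunits and 0.46 for 444 other genes, and from 1000 to 2000 nt they were 0.39 for 26 subunits and 0.27 for 1870 other genes. From 2000 to 4000 nt they were 0.38 for 9 subunits, of which 6 rose, and 0.02 for 3697 other genes, of which 12.7% rose. The 1 subunit above 4000 nt, Atp5j, had a log2 fold change of 0.52, against a median of -0.28 in 4512 other genes. Within the 83 subunits rho was -0.54.

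When a smooth trend on length was removed from each library, 15 of the 83 nuclear subunits rose and none fell in limma, with a median log2 fold change of 0.06. Over all tested genes 10% rose and 9.17% fell on that basis. By complex, 9 of 37 rose in complex I, none of 4 in complex II and 1 of 9 in complex III. In complex IV 2 of 18 rose, and in complex V 3 of 15. The median log2 fold changes of complexes I to V were 0.068, 0.041, 0.019, 0.024 and 0.10 with the trend removed. Their median implied lengths were 845, 1290, 1313, 588 and 998 nt in that order. Among the 70 short subunits 7 rose and none fell, against 6.43% and 5.74% of the 2162 shortest genes. Of the 15, 13 were among the 36 subunits of 1000 nt or more. The subunits named below for this result were chosen after their values were seen. Cox5a, a subunit of complex IV, has an implied length of 3153 nt and averaged 34.1 ± 0.274 FPKM in KO and 23.9 ± 0.878 FPKM in WT. Its log2 fold change was 0.50 before removal and 0.53 after it (limma adjusted p = 0.00225). Atp5j of the peripheral stalk of complex V, at 4137 nt, had 0.52 before and 0.65 after removal (limma adjusted p = 0.00346). Of 10 subunits of 2000 nt or more 7 rose with the trend removed, and Atp5a1, Sdha and Ndufs1 did not. The removal uses the implied length, which can exceed that of the main transcript. How far these calls depend on that was not tested. Ndufa13, Ndufb11, Ndufv2 and Ndufv3 of complex I, Uqcrq of complex III and Atp5c1 of complex V also kept the call, with log2 fold changes of 0.29 to 0.38, whereas that of Cox4i1 became 0.02 and that of Cox7c 0.11. Of the mitochondrial genes COX2, COX3, ATP6 and ATP8 rose with the trend removed (log2 fold changes 1.14, 1.34, 1.58 and 1.43, limma adjusted p = 0.0118, 0.0103, 0.00812 and 0.0242). Genotype and the length trend cannot be told apart in these 6 libraries.

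**Figure D5:**
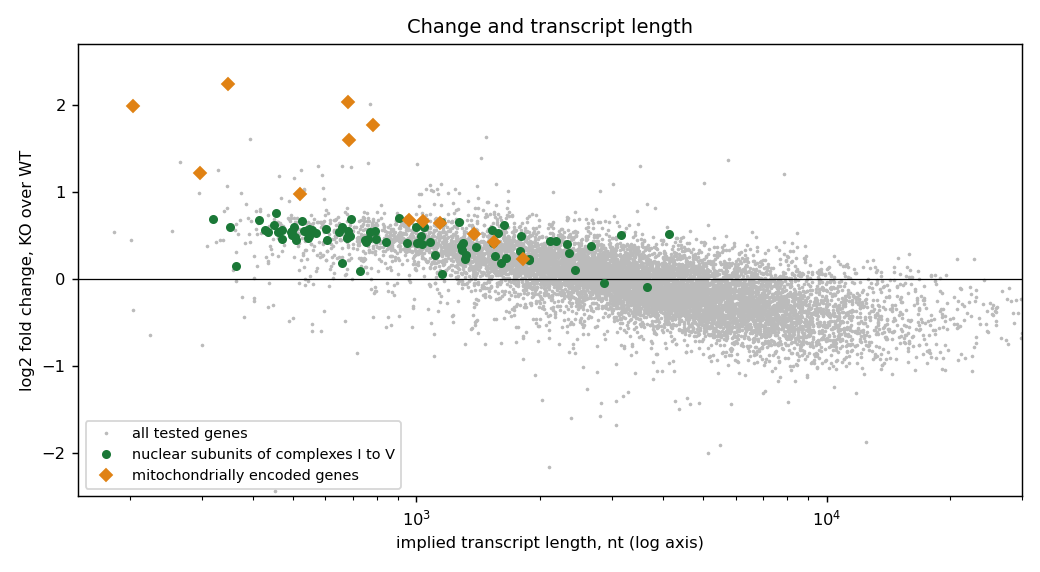
Log2 fold change, KO over WT, against implied transcript length (log axis) for all tested genes (grey), nuclear subunits of complexes I to V (green) and mitochondrially encoded genes (orange); 22 grey points lie outside the axes. Green points below 1000 nt sit within the grey band, and Cox5a and Atp5j, at 3153 and 4137 nt, lie at 0.50 and 0.52.

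Genes that build or serve the chain were examined from 10 further lists, which share Cox10, Cox11, Cox15, Cox17 and Cycs with the members. The genes named from them are those with the smallest p, and Coq9, Tfam, Polrmt, Gabpa, Nrf1, Gabpb1, Ppargc1a and the genes that fell in lists that mostly rose were chosen after their values were seen. Each count below stands beside 18.3% of all tested genes that rose and 25.8% that fell, or 10% and 9.17% with the length trend removed. Of 18 tested assembly factors of complex I, 11 rose and none fell in limma, and 3 rose with the trend removed. Ndufaf8 averaged 41.9 ± 1.04 FPKM in KO and 24.9 ± 2.98 FPKM in WT, and Lyrm2 and Dmac1 rose as well, but none of these 3 calls held with the trend removed (limma adjusted p = 0.132, 0.134 and 0.63). Of 24 tested genes listed for assembly of complex IV 13 rose, led by Higd2a, Pet100 and Coa3, and 2 rose with the trend removed. Pet100 averaged 24.4 ± 3.29 FPKM in KO and 14.1 ± 1.77 FPKM in WT, and it rose also on that basis (log2 fold change 0.41, limma adjusted p = 0.0183), whereas Higd2a and Coa3 did not pass (adjusted p = 0.66 and 0.816). Coa5 and Hccs fell, but neither passed with the trend removed (limma adjusted p = 0.0807 and 0.0664). Hccs was counted in this list, although its enzyme joins heme to cytochromes c and c1. The call of Coa5 was also lost without KO replicate 4 or WT replicate 4 (limma adjusted p = 0.0509 and 0.065). That of Hccs was lost without any 1 library except KO replicate 2 (limma adjusted p from 0.0502 to 0.153). Of the assembly factors of complex II 2 of 4 rose (Sdhaf1 and Sdhaf4), and of complex III 2 of 5 (Uqcc2 and Uqcc3), and none of these 4 genes passed with the trend removed. Sdhaf4 also did not pass without KO replicate 2, KO replicate 4 or WT replicate 4 (limma adjusted p from 0.0555 to 0.0642). Of 8 genes of complex V assembly and regulation 5 rose, and 2 with the trend removed. Among them Atpif1, which encodes the inhibitor of ATP hydrolysis by complex V, averaged 57.1 ± 2.63 FPKM in KO and 34.5 ± 3.3 FPKM in WT, and it rose also with the trend removed (log2 fold change 0.46, limma adjusted p = 0.00596). Atp5md and Atp5mpl, small subunits that the pathway annotation leaves out, rose, but not with the trend removed (limma adjusted p = 0.58 and 0.356).

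Of 24 genes of mitochondrial protein import 16 rose and none fell. With the length trend removed 7 rose, and the median log2 fold change was 0.064, against 0.40 without removal. Tomm22, Tomm7 and Timm10b rose on both bases. Of 17 genes of cristae and inner membrane carriers 14 rose and Opa1, a gene of inner membrane fusion, fell. With the length trend removed 1 of the 17 rose, Chchd3, and none fell. The count of 14 was 7 without WT replicate 4, and 9 with the replicate numbers blocked or without KO replicate 2, KO replicate 3, KO replicate 4 or WT replicate 3. Phb2, a prohibitin, averaged 124 ± 3.09 FPKM in KO and 93.6 ± 5.39 FPKM in WT, and Micos13 and Chchd3, both of the complex that shapes cristae, rose. Phb2 and Micos13 did not pass with the trend removed (limma adjusted p = 0.203 and 0.765). Of electron carriers and their synthesis 3 of 15 rose (Etfb, Coq7 and Coq9), a share of 20% that is near the 18.3% of all tested genes. None of those 3 passed with the trend removed, when 3 other genes rose. Coq9 did not pass without any 1 library except KO replicate 4 (limma adjusted p from 0.0798 to 0.161), and Coq10b fell, except without KO replicate 2 or WT replicate 4. Of 24 genes of mitochondrial DNA maintenance and transcription 3 rose (12.5%, against 18.3% of all tested genes), and 4 rose with the trend removed. The 3 were Slirp and Hsd17b10, which did not pass with the trend removed (limma adjusted p = 0.899 and 0.165), and Elac2, which did (0.0188) but was lost without KO replicate 3, KO replicate 4, WT replicate 2 or WT replicate 3 (0.0589 to 0.0668). Lrpprc, the partner of Slirp in keeping mitochondrial mRNA stable, fell. That fall was lost without KO replicate 2, KO replicate 4, WT replicate 2 or WT replicate 4, with quantile, median-ratio and nuclear-read scaling, and with the trend removed. Tfam had 5.56, 6.34 and 6.21 FPKM in KO replicates 2, 3 and 4, and 6.93, 6.16 and 6.36 FPKM in WT replicates 2, 3 and 4. Tfam, which packages mitochondrial DNA and starts its transcription, had overlapping groups (limma adjusted p = 0.436), as had Polrmt, the mitochondrial RNA polymerase (limma adjusted p = 0.4).

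Of 13 regulators of mitochondrial biogenesis that were tested, none rose and 8 fell, among them Sp1, Gabpb2 and Hcfc1, with a median log2 fold change of -0.36, and Gabpa, a factor that binds many promoters of respiratory chain genes, averaged 7.85 ± 0.322 FPKM in KO and 10.7 ± 0.667 FPKM in WT. Their median implied length was 6236 nt, and of 4512 tested genes of 4000 nt or more outside the members, 2361 fell. With the length trend removed 3 of the 13 regulators fell and 2 rose (Nrf1 and Gabpb1), with a median of -0.11. Hcfc1 and Gabpa did not pass on that basis (limma adjusted p = 0.141 and 0.0972). Nrf1 had 2.69, 2.8 and 2.62 FPKM in KO replicates 2, 3 and 4, and 2.67, 2.9 and 2.67 FPKM in WT replicates 2, 3 and 4. Nrf1, the respiratory factor, did not pass in the test without that removal (log2 fold change -0.02, limma adjusted p = 0.891) and had a log2 fold change of 0.44 with it (adjusted p = 0.0122). Ppargc1a, the best known coactivator of this programme, averaged 0.0343 FPKM in KO and 0.0243 FPKM in WT, too low to be tested.

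Markers of other cells were measured beside these genes. Their counts stand beside 18.3% of all tested genes that rose and 25.8% that fell, or 10% and 9.17% with the length trend removed. The 20 cardiomyocyte markers summed to 309.9 to 374.1 FPKM in KO and 226.6 to 328 FPKM in WT, with overlapping groups. Of 15 tested 2 rose (Myl2 and Nppa) and Myh6 fell, a fall lost without KO replicate 3, KO replicate 4, WT replicate 3 or WT replicate 4 (limma adjusted p from 0.0842 to 0.132), and Ttn, Ryr2 and Myl7 averaged under 0.1 FPKM. The 14 markers of monocytes and macrophages summed to 233.4 to 359.2 FPKM in KO and 97.3 to 239.1 FPKM in WT, and 7 of 13 tested rose. The 7 neutrophil markers summed to 38 to 62.2 FPKM in KO and 15.6 to 23.9 FPKM in WT, 3 of 4 tested rose, and Ly6g was near 0. The 8 lymphocyte markers in the table summed to 17.3 to 27 FPKM in KO and 8.34 to 10.6 FPKM in WT, and all 3 tested rose. The erythroid and platelet list, which is led by haemoglobin genes, summed to 434.1 to 559.7 FPKM in KO and 266.9 to 343.8 FPKM in WT, and 5 of 7 tested rose. Fibroblast markers summed to 13.3 to 16.5 FPKM in KO and 27.3 to 31.9 FPKM in WT, and all 6 tested fell, as did 7 of 10 mural markers, which summed to 344.8 to 539.9 FPKM in KO and 458.6 to 601 FPKM in WT. Endothelial markers summed to 4439 to 4847 FPKM in KO and 4818 to 4949 FPKM in WT, and of 12 tested 5 fell and 2 rose. After the length trend was taken out, 1 of 7 erythroid and platelet and 2 of 13 monocyte and macrophage markers were called higher. The same held for 3 of 4 neutrophil, 3 of 3 lymphocyte and 1 of 15 cardiomyocyte markers, with no lower call in any of these lists. On that basis 5 of 6 fibroblast, 6 of 10 mural and 3 of 12 endothelial markers were called lower, and none higher. The part of these cells in the changes of respiratory chain genes was not tested.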

How the data were processed

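RNA-seq of 6 libraries (3 KO, 3 WT) was analysed, starting from gene values of the authors. The deposited FPKM table holds 20893 genes. The authors' deposited comparison of 17686 genes holds the same FPKM, group means of size-factor-scaled read signal, a fold ratio, a log2 fold change, and p-values and q-values, per the file headers from DESeq2. The submitters' processing notes name, with no roles, the build mm10, the aligner HISAT2 2.1.0, the counter featureCounts 1.6.2, DESeq2 1.22.1, fastp 0.19.3, GATK 4.0.11.0, Cufflinks and StringTie 1.3.4d; the kit was stranded, per the labels' protocols, but the treatment of strand and of multiply matching reads in counting is not given in the sources used here. FPKM divides by length and by the library's reads, so a larger mitochondrial share lowers every nuclear value.

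Whole reads and the lengths the scaling used were recovered from FPKM and the group means: of the values checked, up to 1000 reads, 100% came out whole within 0.05 reads, and 3207 genes had no recovered reads. Genes at 1 FPKM or more in at least 3 libraries were fitted with limma 3.58.1 (R 4.3.3, trended variance) on log2 of FPKM plus a pseudocount of 1, over both groups with no covariate and Benjamini-Hochberg adjustment over 10806 genes. On simulated data with known changes, the fit called 92% of genes raised 1.5-fold, 100% of those raised 2-fold and 0.105% of 10510 unchanged genes. The simulation gave all genes the same dispersion and held no length trend, unlike these libraries. Its rates therefore check the code and do not give the error rate of the fit on these data. Replicates of a group differed well beyond counting error (chi-square per gene 19.6 to 67.0). The sources used here do not say whether the replicate numbers pair the samples, and the numbers were not taken as pairs. Alternatives were quantile normalization, median-ratio factors, scaling to nuclear reads, removal of a spline on length (5 degrees of freedom) from each library, a pseudocount of 0.1, no filter, a filter at 5 FPKM, a replicate block, limma-voom on recovered reads, and leaving out each library.

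Members and lists were chosen with earlier results of these data known. Genes named are the 13 mitochondrial ones, in each complex the 3 with the highest mean FPKM and the 3 called with the smallest p in each direction, the isoform pairs, and the 3 called with the smallest p in each related list; others are said to be chosen after their values were seen. Coordinates are those of RefSeq's GRCm38.p6 annotation, in which all 108 members matched. Tables were handled with Python 3.11.15 and pandas 2.3.3, and no sequence was used.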

Additional observations from a re-analysis of the deposited data

How the results depend on the processing

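No alternative turned the direction of the nuclear subunits as a set, and of the settings tried removal of the length trend moved the counts over all tested genes, members and nuclear members most. With the length trend removed, 1084 genes rose and 991 fell over all tested genes (1982 and 2790 in the reported fit, a share of higher calls of 52.2% against 41.5%), 20 members rose (84 reported), 16 nuclear members (76) and 4 mitochondrial ones (8), and the medians were 0.056 for nuclear subunits and 0.47 for mitochondrial genes. With quantile normalization the median of nuclear subunits was 0.34, 4 mitochondrial genes rose, and 1 member, the nuclear gene Sdha, fell. That method sets the top ranks equal in all libraries, so ND1, ND2 and CYTB came to 0.00 by its construction. Without a filter on low values, 4 mitochondrial genes rose. Leaving out single libraries gave 71 to 80 members, 67 to 75 nuclear members and 4 to 10 mitochondrial members that rose. Of the 38 members that rose and were named by the stated rule, 6 kept the call in all settings, and 30 in all but removal of the length trend.

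Among the genes named, log2 fold changes turned sign in these cases. With the length trend removed they were -0.057 for Ndufv1, -0.084 for Ndufs7, -0.048 for Ndufb4b, -0.084 for Uqcrfs1, -0.22 for Lhpp, 0.028 for Tfam, 0.44 for Nrf1, 0.40 for Gabpb1, -0.15 for Cox17, 0.033 for Cox15, 0.083 for Tcirg1, -0.033 for Ppa1, -0.35 for Cox4i2, -0.28 for Cox6a2, -0.027 for Cox6b2, -0.011 for Cox7a2, -0.39 for Cox8b, -0.025 for Cox8a, -0.28 for Ndufa4l2, -0.0094 for Sdhaf1 and -0.027 for Micos13. With quantile normalization they were -0.10 for Atp5a1, 0.039 for Tfam, 0.11 for Nrf1, 0.062 for Gabpb1, -0.075 for ND5, -0.16 for Atp5b, 0.017 for Cox10 and -0.086 for Atp6ap1. Scaling to nuclear reads gave 0.0016 for Sdha, 0.029 for Tcirg1 and 0.024 for Nrf1, and median-ratio factors gave 0.025 for Tcirg1 and 0.0199 for Nrf1. Leaving out single libraries gave -0.11 to 0.10 for Lhpp, -0.036 to 0.012 for Nrf1, -0.067 to 0.47 for ND5, -0.015 to 0.042 for Atp6ap1, -0.086 to 0.046 for Tcirg1, -0.084 to 0.26 for Cox4i2, -0.0036 to 0.37 for Cox8b and -0.038 to 0.17 for Ndufa4l2. The cause was not tested.

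Samples that share a replicate number deviated in opposite directions (r = -0.19, -0.35 and -0.22 for numbers 2, 3 and 4), and the numbers were not taken as pairs. The deviations were taken from group means of 3 libraries, which ties these values to each other, so they cannot exclude a pairing. With the replicate block 1542 genes rose and 2207 fell, and 79 members rose, 72 of them nuclear and 7 mitochondrial. With 3 libraries a group, small differences such as that of Atp5b lie at the limit of detection. With the length trend removed the log2 fold change of Atp5b was 0.03.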
